A study of Homo sapiens with 24 samples.

Results

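The type I interferon response genes described here were 10 genes picked by symbol, with earlier results of these data known. They were ISG15, IFIT1, IFIT2, IFIT3, IFI6, MX1, OAS1, OAS2, OAS3 and IRF7. All 10 were found among the 28307 genes of the deposited count table. Comparisons of the 10 with all genes are therefore descriptions. RNA had been sequenced from 2 established human cancer lines, SUM159 (breast) and SW620 (colon). They were exposed for 30 h in adherent culture to the nitrofuran antibiotic nifuroxazide (NIF) or to DMSO. Cells were sorted by aldehyde dehydrogenase activity into ALDHbr cells, which the labels call cancer stem cells, and ALDHneg cells. The sources used here do not settle whether the sort came before or after the exposure. Each line gave 4 groups, ALDHbr DMSO, ALDHbr NIF, ALDHneg DMSO and ALDHneg NIF, with 3 libraries per group from independent experiments, so that there were 8 groups and 24 libraries. The NIF concentration used for these libraries is not given in the sources used here. Each line stands for 1 tumor, and ALDH activity at the sort defines the populations, not a genetic change.

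Type I interferons bind the receptor pair IFNAR1 and IFNAR2, and the kinases JAK1 and TYK2 then pass the signal on. It ends in the complex ISGF3, of which STAT2 and IRF9 are parts and which binds the interferon-stimulated response element (ISRE) in the promoters of antiviral genes. The genes also keep a low basal level in many tumor cells without added interferon, and IRF7, itself a target, feeds back on interferon production.

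RefSeq promoter windows (build GRCh38.p14, 250 bases before to 50 bases after a start) were at hand for 7 of the 10 genes, in 10 windows, and were searched on both strands for the core of the ISRE, GAAANNGAAA, and for the gamma-activated site, TTCNNNGAA. The ISRE core was found in 8 of the 10 windows, against 1255 of all 35116 windows (3.57%), and in 6 of the 7 genes, against 4.38% of all genes with a window. The gamma-activated site was found in 2 of the 10 windows, those of OAS1 and MX1, against 7.66% of all windows, and the MX1 match overlapped an ISRE core. The OAS1 window held no match to GAAANNGAAA, and the OAS3 window held 2. Elements with another spacing were not searched for, so OAS1 may hold an ISRE that this pattern misses. Whether the core goes with the NIF values given below was not tested. The sequences are printed, 5′ to 3′ on the strand of the gene, to show how the core recurs close to the start in 4 of the members, and capitals mark each match on either strand. The ISG15 window (chr1:1013247-1013546, + strand) holds 2 cores that overlap, IFIT1 (chr10:89392373-89392672, + strand) holds 2, the first IFIT3 start (chr10:89327747-89328046, + strand) holds 2, and IFI6 (chr1:27672143-27672442, - strand) holds 3.
ISG15 promoter: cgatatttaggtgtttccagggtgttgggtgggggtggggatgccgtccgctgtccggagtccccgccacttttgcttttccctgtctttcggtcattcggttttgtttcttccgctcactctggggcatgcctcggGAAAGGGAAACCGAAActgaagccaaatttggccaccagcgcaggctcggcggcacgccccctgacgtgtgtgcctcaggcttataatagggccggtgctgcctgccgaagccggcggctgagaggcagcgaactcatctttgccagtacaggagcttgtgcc
IFIT1 promoter: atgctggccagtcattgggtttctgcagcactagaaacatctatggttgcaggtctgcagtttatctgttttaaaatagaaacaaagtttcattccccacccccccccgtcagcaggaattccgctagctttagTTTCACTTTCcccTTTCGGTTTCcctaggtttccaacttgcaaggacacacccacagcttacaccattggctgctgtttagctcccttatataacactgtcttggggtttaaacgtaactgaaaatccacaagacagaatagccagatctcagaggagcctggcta
IFIT3 promoter: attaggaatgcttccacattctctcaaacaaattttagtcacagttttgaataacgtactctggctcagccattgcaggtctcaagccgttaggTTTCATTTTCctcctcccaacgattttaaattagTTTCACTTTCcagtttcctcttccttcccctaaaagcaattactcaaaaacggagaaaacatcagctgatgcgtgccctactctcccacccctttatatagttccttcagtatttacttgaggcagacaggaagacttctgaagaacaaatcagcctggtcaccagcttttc
IFI6 promoter: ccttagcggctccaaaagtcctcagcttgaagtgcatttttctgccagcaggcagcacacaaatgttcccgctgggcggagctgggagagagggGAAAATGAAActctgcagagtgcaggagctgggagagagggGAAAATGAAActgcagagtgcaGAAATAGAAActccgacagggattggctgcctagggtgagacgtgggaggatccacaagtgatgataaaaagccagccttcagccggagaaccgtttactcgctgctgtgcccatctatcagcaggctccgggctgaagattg
In these 4 windows, the first with a core in the order of the genes, every core lay between positions -156 and -84 relative to the start. Other windows held cores outside that stretch, at -51 to -42 for the other IFIT3 start and -12 to -3 for OAS3. In MX1 they lay at -196 to -187 and at 12 to 21. The remaining cores, at -94 to -85 for that IFIT3 start and -143 to -134 for OAS3, lay within it. A match is a stretch of letters and not a measured binding site.

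In GRCh38.p14 the 3 IFIT genes lie side by side on chromosome 10 (IFIT2 at 89302046-89309271, IFIT3 at 89327997-89340968, IFIT1 at 89392623-89406487), all within the annotated span of LIPA, a lysosomal lipase gene. OAS1 (112906962-112933219), OAS3 (112938474-112973251) and OAS2 (112978519-113011723) form a run on chromosome 12. ISG15 (1013497-1014540) and IFI6 (27666064-27672192) are on chromosome 1, IRF7 (612555-615950) on chromosome 11 and MX1 (41420558-41459214) on chromosome 21. The library kit marks strand, but whether the counting used it is not given in the sources used here, so reads of LIPA and of the IFIT genes may not be fully told apart. LIPA did not rise under NIF in SW620, with log2 fold changes of -0.15 ± 0.06 (SE) in ALDHbr and -0.24 ± 0.06 (edgeR adjusted p = 0.00584) in ALDHneg cells. Under DMSO it was higher in SW620 than in SUM159, by 0.40 ± 0.12 in ALDHbr and 0.64 ± 0.12 in ALDHneg cells on the log2 scale. The part of LIPA reads in the IFIT values was not tested.

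Total counts ran from 30253187 to 43127948 per library. The 10 genes took 0.00652% to 0.00874% of the counts in SUM159 and 0.0252% to 0.0571% in SW620. Markers fitted the line labels, with a summed level of 10 mesenchymal genes of 6360 to 8640 CPM (counts scaled to a common library size) in SUM159 against 8.07 to 37.6 in SW620. ALDH1A1, an enzyme read by the ALDEFLUOR sort, lay at 97.3 to 143 CPM in SUM159 ALDHbr DMSO against 0.395 to 0.506 in ALDHneg DMSO, but at 1340 to 1440 against 940 to 976 in SW620, so that the SW620 populations were less far apart in it. ALDH1A3, the other sort marker checked, ran against the sort in SW620 under DMSO, at 142 to 153 CPM in ALDHbr and 183 to 193 in ALDHneg libraries. Summed over both markers, SW620 ALDHbr libraries held 1500 to 1580 CPM under DMSO and 1030 to 1090 under NIF. SW620 ALDHneg libraries held 1130 to 1170 and 619 to 649, so ALDHbr NIF lay below ALDHneg DMSO. SUM159 ALDHbr libraries held 97.7 to 144 and 120 to 206. Whether the sort took the same kind of cells under both treatments was not tested, which limits each NIF comparison within a population. Of 10 leukocyte markers, 4 to 6 had 0 counts in each SW620 library, and PTPRC, CD3E and CLEC4C had 0 or 1 count in every one. LYZ alone made up most of the summed 1310 to 1700 CPM there. In SUM159 the 10 summed to 11.7 to 18.9 CPM in ALDHbr and 24.2 to 30.3 CPM in ALDHneg libraries. SUM159 ALDHbr DMSO replicate 3 stood apart, with 306 summed counts of 9 colon epithelial genes against 7 to 34 in the other SUM159 libraries, which is 0.332% of their mean SW620 level. At that share SW620 RNA would bring 4.13 of its 16 OAS1 counts and 10.3 of its 408 ISG15 counts. SW620 ALDHbr DMSO replicate 2 differed from its partner libraries with a chi-square per gene of 43.1 and 33.5, against 1.95 to 28.3 in the pairs of the other groups and 6.18 between its 2 partners. Results that use either library are given with and without it where it changes them.

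SW620 cells held more of these transcripts than SUM159 cells without NIF. OAS1 passed the filter of the 24-library fit only through its SW620 counts and is left out of the counts and medians between lines. Under DMSO, the other 9 of 9 genes were higher in SW620 in ALDHbr cells (81.3% of all 16271 genes tested were called in that comparison) and 9 of 9 in ALDHneg cells (81.2% of all genes called). With most genes of the table called between lines that come from different tissues, the counts themselves say little about these 9, but their direction was shared, and their median log2 difference was 2.65 in ALDHbr and 2.89 in ALDHneg cells against -0.05 and -0.07 over all genes tested. OAS1, which makes the 2′-5′ oligoadenylates that activate RNase L, showed the widest gap, since it had 1 to 16 counts in each SUM159 library. Its level under DMSO in ALDHneg cells was 29.6, 27.4 and 28.8 CPM in SW620 against 0.264, 0.0608 and 0.0920 in SUM159, a log2 difference of 7.64. No p is given for OAS1, since the filter let it in through the line where it is high. In ALDHbr cells its log2 difference was 6.55, and 7.22 without SUM159 ALDHbr DMSO replicate 3, whose 0.405 CPM was the highest OAS1 value of the line. OAS3, a larger sensor of double-stranded RNA in the same family, was the nearest between the lines. It lay at 74.7, 100 and 76.3 CPM in SW620 ALDHbr DMSO against 56.2, 50.5 and 55.9 in SUM159 ALDHbr DMSO, a log2 difference of 0.63 ± 0.11 (edgeR adjusted p = 8.48e-06), and the groups did not overlap. The other 8 genes differed by 1.63 (MX1) to 4.41 (IFIT2) on the log2 scale in ALDHbr cells and by 2.20 (MX1) to 4.54 (IFI6) in ALDHneg cells. In bulk RNA, fewer cells of a kind and less RNA in each cell cannot be told apart.

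Per kilobase of canonical transcript, the order of the genes also changed with the line. In SW620 ALDHbr DMSO cells ISG15, the ubiquitin-like modifier, led with 87.9 ± 13.6 CPM per kb (SD, n = 3), followed by IFI6, a mitochondrial protein linked to cell survival, at 44.3 ± 4.73. IRF7 (16.1 ± 1.75), OAS1 (14.4 ± 0.802) and OAS3 (12.7 ± 2.18) came next and overlapped within their spread. IFIT3 (5.73), IFIT2 (3.08), IFIT1 (2.30), MX1 (1.39) and OAS2 (0.618) followed in clear steps. In SUM159 ALDHbr DMSO cells ISG15 again led at 14.0 ± 2.09 CPM per kb, OAS3 was second at 8.21 ± 0.480, and IFIT1, OAS2, IFIT2 and OAS1, at 0.145 to 0.170, could not be ordered within their spread. In SW620 ALDHneg DMSO cells IFI6 came first at 140 ± 9.78 CPM per kb, ahead of ISG15 at 120 ± 3.52.

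**Figure D1:**
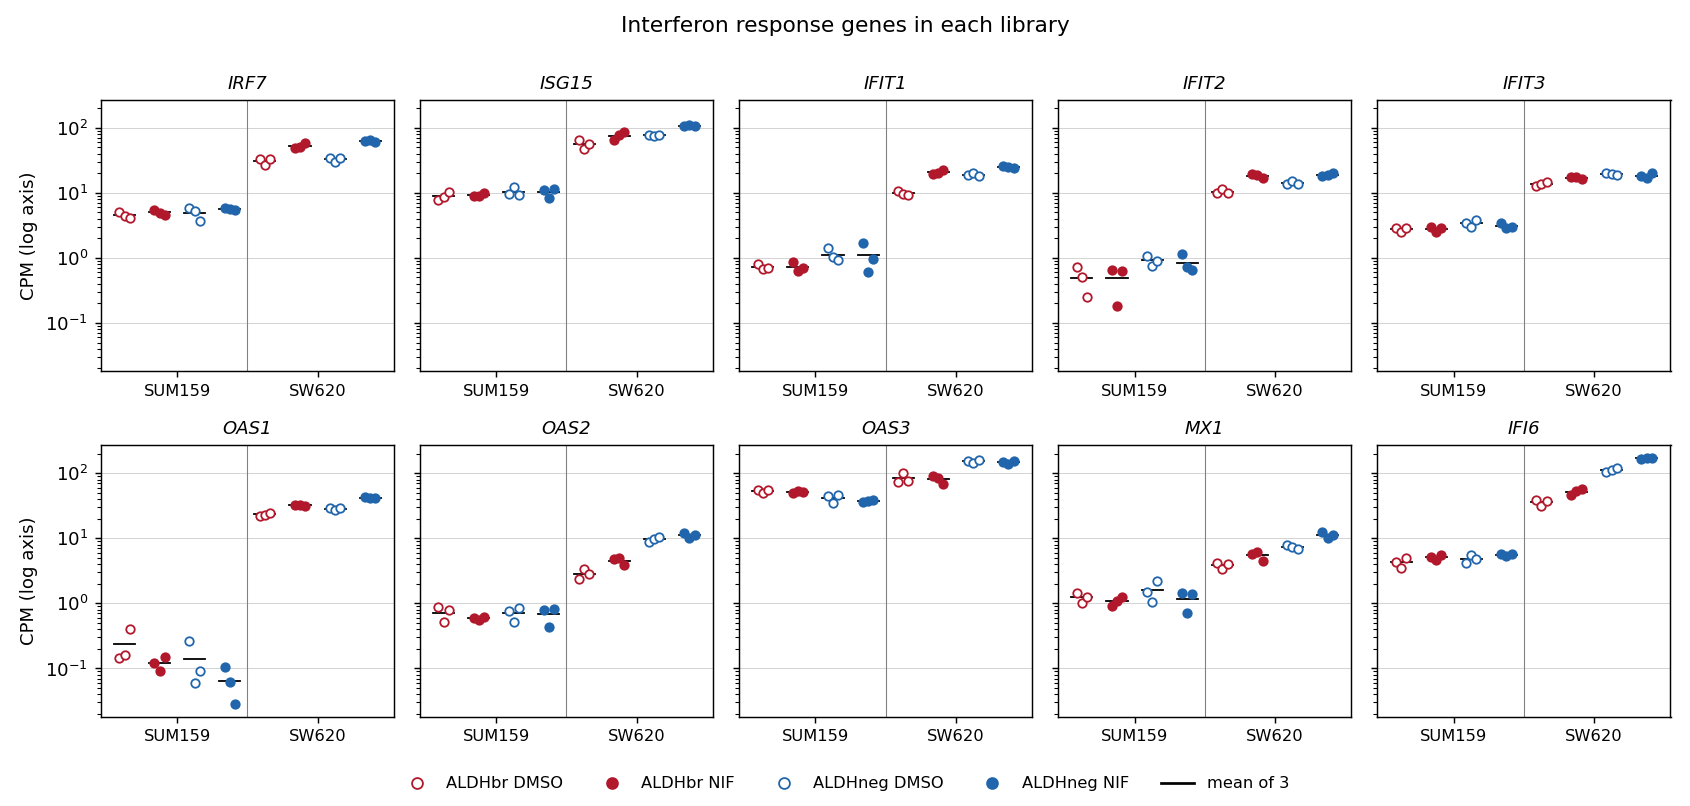
CPM of each of the 10 genes in the 24 libraries on a log axis, with 1 panel per gene, groups of 3 libraries along the x axis (SUM159 left, SW620 right), open circles for DMSO, filled circles for NIF and a bar at the group mean. All SW620 libraries lie above all SUM159 libraries of the same population and treatment for each gene, and OAS1 shows the widest distance.

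NIF raised most of the 10 genes in SW620 cells. In ALDHbr cells 9 of 10 were higher under NIF than under DMSO and none was lower, where 43.3% of all 13953 genes tested were called (2987 higher, 3051 lower). In ALDHneg cells 7 of 10 were higher and none was lower, where 45.1% of all genes were called. The median log2 fold change of the 10 was 0.52 in ALDHbr and 0.44 in ALDHneg cells, beside -0.01 over all genes tested in both. The 3 NIF libraries lay above the 3 DMSO libraries for the same 9 and 7 genes, while 45.1% of all genes tested in ALDHbr and 63.4% in ALDHneg cells had groups that did not overlap. OAS3 was called in neither population. Without SW620 ALDHbr DMSO replicate 2, 9 genes were again called higher in ALDHbr cells, and 50.4% of all genes.

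IRF7, the transcription factor that drives interferon alpha genes, had the largest rise of the 10 in ALDHneg cells. It lay at 34.2, 30.2 and 34.4 CPM in the DMSO libraries and at 63.1, 63.8 and 59.7 in the NIF libraries, so that every NIF library was far above every DMSO library. This was a 1.88-fold rise (log2 0.91 ± 0.09, edgeR adjusted p = 1.91e-06). In ALDHbr cells IRF7 went from 32.5, 27.0 and 33.2 CPM to 48.6, 50.0 and 59.2, a 1.70-fold rise (log2 0.76 ± 0.09, edgeR adjusted p = 1.33e-05). Its DMSO levels overlapped between the ALDHbr and ALDHneg populations.

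ISG15, which is conjugated to other proteins and also secreted, rose 1.34-fold in ALDHbr and 1.40-fold in ALDHneg cells. The ALDHbr DMSO libraries held 64.0, 46.8 and 57.1 CPM and the ALDHbr NIF libraries 65.0, 76.2 and 84.9. The groups did not overlap, but the highest DMSO and the lowest NIF library were only about 1 CPM apart (log2 0.42 ± 0.10, edgeR adjusted p = 0.00464). In ALDHneg cells the gap was wider, with 77.2, 73.8 and 78.0 CPM under DMSO and 107, 109 and 107 under NIF (log2 0.48 ± 0.10, edgeR adjusted p = 0.00154).

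The IFIT proteins bind foreign RNA and hold back its translation, and the point estimates of all 3 were larger in ALDHbr than in ALDHneg cells. IFIT1 had the largest rise of the 10 in ALDHbr cells, from 10.7, 9.58 and 9.40 CPM under DMSO to 19.3, 20.4 and 22.2 under NIF, which is 2.07-fold (log2 1.05 ± 0.08, edgeR adjusted p = 1.07e-07). In ALDHneg cells IFIT1 began higher, at 18.6, 19.9 and 18.2 CPM, and reached 25.5, 25.3 and 24.3 (log2 0.40 ± 0.07, edgeR adjusted p = 4.84e-04). The ALDHbr cells under NIF thus arrived near the level of untreated ALDHneg cells. IFIT2 rose from 9.86, 11.3 and 10.1 CPM to 19.3, 18.5 and 17.0 in ALDHbr cells (log2 0.81 ± 0.08) and from 13.8, 15.3 and 13.7 to 18.2, 18.6 and 20.2 in ALDHneg cells (log2 0.40 ± 0.08). IFIT3 rose in ALDHbr cells from 12.9, 13.8 and 14.4 CPM to 17.2, 17.6 and 16.3 (log2 0.31 ± 0.07, edgeR adjusted p = 0.00362). In ALDHneg cells its DMSO values of 20.0, 19.6 and 18.7 and NIF values of 18.1, 17.1 and 19.8 overlapped (log2 -0.09 ± 0.07, edgeR adjusted p = 0.313).

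The oligoadenylate synthetases sense double-stranded RNA, and they parted from each other. OAS1 rose in both populations, from 22.4, 23.0 and 24.9 CPM to 32.6, 32.5 and 31.0 in ALDHbr cells (log2 0.45 ± 0.06) and from 29.6, 27.4 and 28.8 to 42.9, 41.0 and 41.3 in ALDHneg cells (log2 0.54 ± 0.06), with no overlap and replicates close together. OAS2 rose in ALDHbr cells from 2.37, 3.36 and 2.83 CPM to 4.83, 4.94 and 3.86 (log2 0.68 ± 0.14, edgeR adjusted p = 0.00174), while in ALDHneg cells the value was 0.20 ± 0.12 (edgeR adjusted p = 0.19). OAS3 stayed between 69.2 and 100 CPM in the 6 ALDHbr libraries and between 141 and 159 in the 6 ALDHneg libraries, with log2 fold changes of -0.03 ± 0.11 and -0.06 ± 0.11. The 100 CPM belonged to SW620 ALDHbr DMSO replicate 2, and without it the ALDHbr value was 0.13 ± 0.09 (edgeR adjusted p = 0.256). OAS1, OAS2 and OAS3 are neighbors on chromosome 12, so adjacent genes of 1 family gave different values under the same drug.

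MX1 encodes a dynamin-like GTPase that traps viral nucleocapsids. It rose from 4.14, 3.39 and 4.05 CPM to 5.84, 6.17 and 4.50 in ALDHbr cells (log2 0.51 ± 0.14, edgeR adjusted p = 0.00791) and from 7.90, 7.41 and 6.89 to 12.6, 10.3 and 11.4 in ALDHneg cells (log2 0.62 ± 0.12, edgeR adjusted p = 6.64e-04). IFI6 rose from 39.3, 31.8 and 37.0 CPM to 46.8, 53.8 and 56.6 in ALDHbr cells (log2 0.54 ± 0.09) and from 106, 113 and 122 to 167, 174 and 174 in ALDHneg cells (log2 0.59 ± 0.08). Both genes moved by similar amounts in the populations although their levels differed between them. Beside these rises, the summed mesenchymal markers went from 8.07 to 10.1 CPM under DMSO to 23.7 to 26.5 under NIF in ALDHbr cells and from 16.8 to 17.9 to 35.3 to 37.6 in ALDHneg cells, most of it AXL, a receptor kinase. TWIST1 had 0 counts in all 12 SW620 libraries and CDH2 0 or 1, and the part of AXL-expressing cells in the rises of the 10 genes was not tested.

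**Figure D2:**
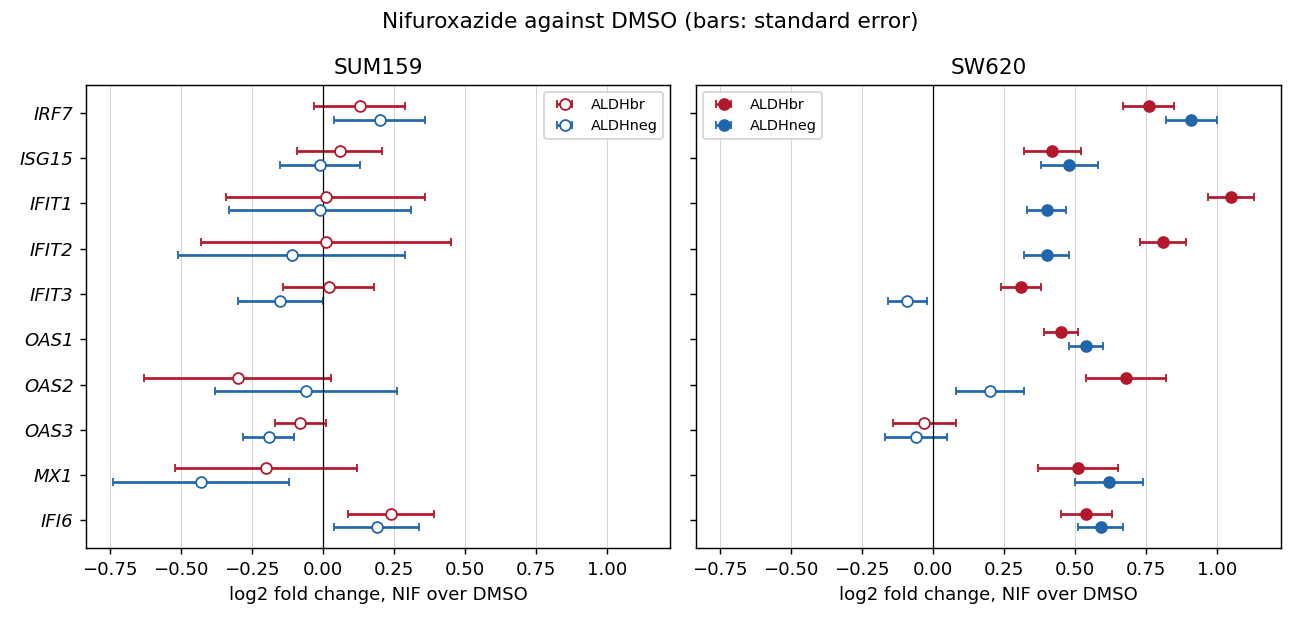
Log2 fold change of NIF over DMSO for each gene in SUM159 (left) and SW620 (right), with ALDHbr in red, ALDHneg in blue, bars of 1 standard error, and filled circles where the adjusted p passed 0.05. The SW620 values lie right of 0 for all genes except OAS3 and, in ALDHneg cells, IFIT3, whereas the SUM159 values scatter around 0 with no filled circle and no OAS1 value, because OAS1 did not pass the filter there.

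In SUM159 cells no member passed the test with NIF. OAS1 failed the filter on low counts, and of the 9 genes tested edgeR called 0 in ALDHbr cells (3.16% of all 14953 genes tested were called) and 0 in ALDHneg cells (3.30% called). At an unadjusted p under 0.05 the counts were also 0 and 0, as they were with DESeq2. SUM159 libraries of the same number varied together, and a fit with that number as a block called 0 of 9 in each population, although 13.3% and 13.2% of all genes then were. The log2 fold changes ran from -0.30 to 0.24 in ALDHbr (median 0.01, beside 0 for all genes) and from -0.43 to 0.20 in ALDHneg cells (median -0.06, beside 0). ISG15 illustrates the overlap, with 7.67, 8.70 and 10.3 CPM under DMSO and 9.08, 9.03 and 9.76 under NIF in ALDHbr cells, and 9.53, 12.3 and 9.18 against 10.9, 8.33 and 11.5 in ALDHneg cells. IRF7 had 5.07, 4.44 and 4.12 CPM under DMSO and 5.37, 4.96 and 4.62 under NIF in ALDHbr cells (log2 0.13 ± 0.16). IFIT1, IFIT2, MX1 and OAS2 lay between 0.182 and 2.19 CPM, with standard errors of 0.31 to 0.44, so that a rise of the size seen for ISG15 in SW620 would not have been detectable for them. For ISG15, IFIT3, IFI6 and IRF7 the standard errors were 0.14 to 0.16, and 0.12 to 0.15 with the block. A rise of the size seen for ISG15 in SW620 could also have missed the adjusted threshold for them. The 0 calls therefore do not show that these genes did not respond. The limit is narrower for IRF7, whose SW620 rises (log2 0.76 in ALDHbr and 0.91 in ALDHneg cells) lay far above these errors. OAS3, the most precise of the 9, went from 44.4, 35.5 and 46.9 CPM to 35.8, 37.6 and 38.2 in ALDHneg cells (log2 -0.19 ± 0.09, edgeR adjusted p = 0.303), and was called lower there without ALDHneg DMSO replicate 2 (log2 -0.30, edgeR adjusted p = 0.0222).

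The difference of the NIF effects between the lines was tested directly in 1 fit of all 24 libraries. Of the 9 genes that passed the filter in both lines, 3 had a larger log2 effect in SW620 in ALDHbr cells (23.1% of all 16271 genes tested were called), IFIT1 by 1.04 ± 0.31, IRF7 by 0.63 ± 0.17 and OAS2 by 0.98 ± 0.31. In ALDHneg cells 3 of 9 did (22.4% called), ISG15 by 0.49 ± 0.18, IRF7 by 0.71 ± 0.17 and MX1 by 1.06 ± 0.30. The point estimate was positive for 9 of 9 genes in both populations, with a median of 0.63 and 0.40 beside 0.01 and 0 over all genes, and IRF7 was called in both. The shares of members called were therefore not far above those of the whole table. OAS1, outside these counts, gave 1.45 ± 0.45 in ALDHbr cells, a value that rested on few SUM159 counts, 5, 5 and 16 under DMSO against 5, 3 and 6 under NIF, and without SUM159 ALDHbr DMSO replicate 3 it was 0.77 ± 0.52 (edgeR adjusted p = 0.418). Without that library OAS2 was not called either (log2 0.92, edgeR adjusted p = 0.0792), IFIT2 was (log2 1.12, edgeR adjusted p = 0.0429), and IFIT1, IFIT2 and IRF7 were the 3 called. OAS2 was called in 6 of the 12 fits that left out 1 of the libraries compared. It was lost without SUM159 ALDHbr NIF replicate 2, SUM159 ALDHbr DMSO replicate 1 or 3, SW620 ALDHbr NIF replicate 1 or 2, or SW620 ALDHbr DMSO replicate 1, at log2 values of 0.85 to 0.95. OAS1 also missed the threshold without SUM159 ALDHbr NIF replicate 1 or replicate 2 (log2 1.46 and 1.33), and IFIT1 without SUM159 ALDHbr DMSO replicate 1 (log2 0.98). In ALDHneg cells MX1 was not called without SUM159 ALDHneg DMSO replicate 3 (log2 0.74). ISG15 was not called in 8 of the 12 fits that left out 1 of the libraries compared, namely any SW620 library or SUM159 ALDHneg NIF replicate 2 or DMSO replicate 2, at log2 values from 0.36 to 0.51. IRF7 was called in both populations in every such fit.

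The populations differed the other way round, since ALDHbr cells of SW620 held less of these transcripts than ALDHneg cells. Under DMSO 9 of 10 genes were lower in ALDHbr cells and none was higher, where 11.3% of all genes tested were called (760 higher, 817 lower). Under NIF 7 of 10 were lower and none was higher, where 6.67% were called. The median log2 difference of the 10 was -0.69 under DMSO and -0.44 under NIF, beside 0.01 over all genes in both. The DMSO libraries serve both as the control of the NIF comparisons and as an arm of this one, so these values and the NIF values are not independent of each other. Groups did not overlap for 9 genes under DMSO and 8 under NIF, against 28.4% and 30.0% of all genes tested. Without SW620 ALDHbr DMSO replicate 2, the count under DMSO was again 9 lower, while 38.8% of all genes were called.

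OAS2 and IFI6 were farthest apart. OAS2 lay at 2.37, 3.36 and 2.83 CPM in ALDHbr DMSO against 8.91, 9.75 and 10.4 in ALDHneg DMSO, 3.41-fold lower in ALDHbr (log2 -1.77 ± 0.13, edgeR adjusted p = 2.63e-06). IFI6 lay at 39.3, 31.8 and 37.0 CPM against 106, 113 and 122, 3.15-fold lower in ALDHbr (log2 -1.66 ± 0.09, edgeR adjusted p = 1.51e-07). Under NIF the differences were -1.29 ± 0.13 for OAS2 and -1.71 ± 0.09 for IFI6. OAS3, not called with NIF, was 1.82-fold lower in ALDHbr under DMSO and 1.79-fold lower under NIF. MX1 was 1.91-fold and 2.07-fold lower, ISG15 1.36-fold and 1.42-fold, and OAS1 1.22-fold and 1.30-fold. Apart from OAS2, the distances of these genes under DMSO and NIF were close to each other.

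The IFIT genes, like OAS2, lay nearer together under NIF by their point estimates. IFIT1 was 1.91-fold lower in ALDHbr under DMSO (log2 -0.93 ± 0.08, edgeR adjusted p = 6.43e-06) and 1.21-fold lower under NIF (log2 -0.28 ± 0.07, edgeR adjusted p = 0.0359), a call lost in 5 of the 6 fits that left out 1 of the libraries compared. IFIT2 went from -0.45 ± 0.08 to -0.05 ± 0.08 (edgeR adjusted p = 0.00345 and 0.742) and IFIT3 from -0.51 ± 0.07 to -0.10 ± 0.07 (edgeR adjusted p = 5.81e-04 and 0.448). IRF7 was called in neither treatment, at -0.09 ± 0.09 and -0.24 ± 0.09, but its NIF groups did not overlap and it was called lower under NIF without SW620 ALDHbr NIF replicate 3 (log2 -0.33). The difference of the NIF effect between ALDHbr and ALDHneg cells is the test of this change, and edgeR called 0 of 10 members in SW620, where 0.00717% of all genes, 1 gene, were called. It was 0.66 ± 0.11 for IFIT1 (edgeR adjusted p = 0.0864), 0.40 ± 0.11 for IFIT2 (0.583) and 0.41 ± 0.10 for IFIT3 (0.444). At an unadjusted p under 0.05 the count was 4, these 3 genes and OAS2, and DESeq2 called 1, IFIT1. IFIT1 was also called by edgeR without SW620 ALDHbr DMSO replicate 2 (log2 0.64, edgeR adjusted p = 0.0265), when 0.191% of all genes were. In SUM159 the same test gave 0 of 9 members and 0% of all genes by edgeR, 0 members at an unadjusted p under 0.05 and 0 by DESeq2.

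In SUM159 few of these genes were called between the sorted populations. The point estimate was positive for 2 of 9 genes under DMSO (median -0.21) and 1 of 9 under NIF (median -0.16), beside 0 over all genes. The rest were lower in ALDHbr cells by their estimates, the direction seen in SW620. Groups did not overlap for 4 of 9 genes under DMSO and 2 of 9 under NIF, against 36.6% and 38.1% of all genes tested. OAS3 was the single member called, higher in ALDHbr cells, both under DMSO (1 of 9, where 23.0% of all genes were called) and under NIF (1 of 9, where 21.9% were called). It lay at 56.2, 50.5 and 55.9 CPM in ALDHbr DMSO against 44.4, 35.5 and 46.9 in ALDHneg DMSO (log2 0.35 ± 0.09, edgeR adjusted p = 0.00892) and at 50.1, 52.7 and 51.4 against 35.8, 37.6 and 38.2 under NIF (log2 0.46 ± 0.09, edgeR adjusted p = 0.00154). The sign was opposite to that of OAS3 in SW620, although a test of that difference was not run. Without SUM159 ALDHbr DMSO replicate 3 the DMSO value was 0.33 (edgeR adjusted p = 0.033). With the replicate block, which pairs the SUM159 libraries, 2 of 9 members were called under DMSO (36.0% of all genes) and 1 of 9 under NIF (35.2%). The second was IFIT2, at 0.724, 0.512 and 0.253 CPM in ALDHbr against 1.08, 0.760 and 0.897 in ALDHneg DMSO, or 10 to 25 against 25 to 41 counts (log2 -0.93 ± 0.35, edgeR adjusted p = 0.0443 with the block and 0.159 without it). The lowest value was that of ALDHbr replicate 3, and without this library the value was -0.56 (edgeR adjusted p = 0.444, no block).

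**Figure D3:**
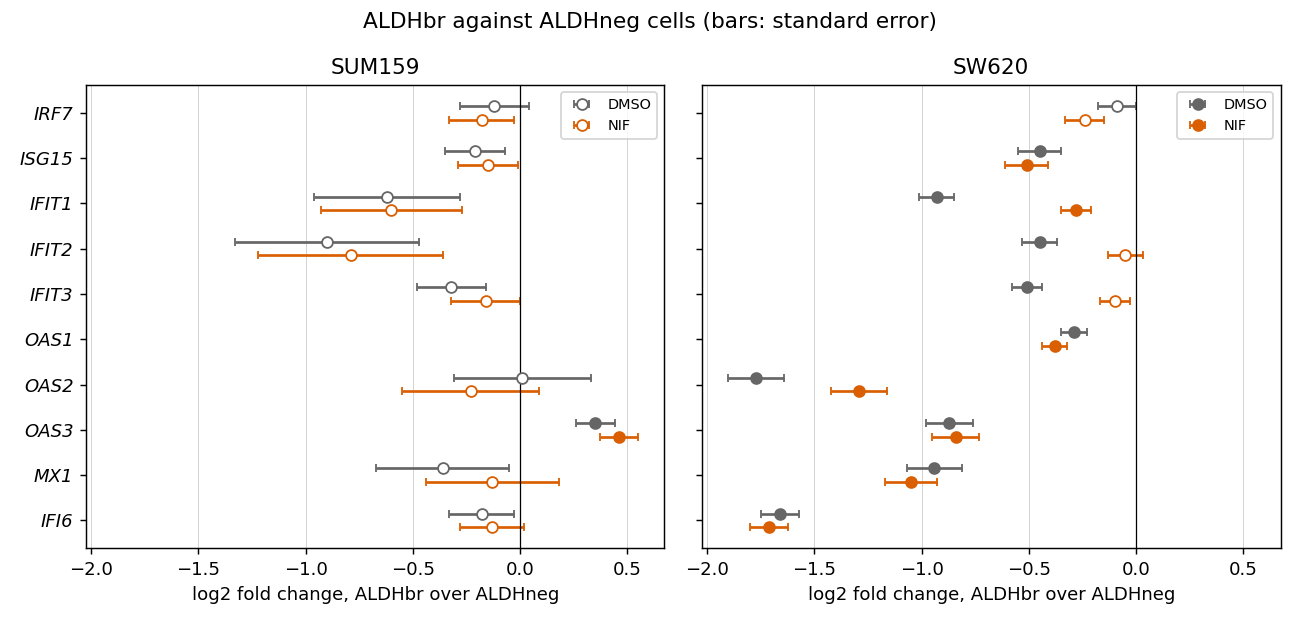
Log2 fold change of ALDHbr over ALDHneg cells for each gene in SUM159 (left) and SW620 (right), under DMSO in grey and NIF in orange, with bars of 1 standard error and filled circles where the adjusted p passed 0.05. In SW620 the points lie left of 0, farthest for OAS2 and IFI6, and the NIF points of the IFIT genes lie nearer to 0 than the DMSO points, while in SUM159 OAS3 lies to the right.

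A list of 85 other genes of the interferon system, grouped by role, places the 10 in their pathway. The ligands were nearly silent. IFNB1, interferon beta, had 0 counts in all 12 SUM159 libraries and 0 to 3 counts in the SW620 libraries, and IFNA1, IFNK and IFNW1 had 0 counts in all 24. IFNE, an epithelial type I interferon, had 0 counts in SUM159 and 7 to 44 counts in SW620, and was not called under NIF (log2 -0.04 ± 0.37 in ALDHbr and 0.62 ± 0.33 in ALDHneg cells). IFNL1, a type III interferon, reached 17 counts at most. Only IFNE and IFNL1 passed the filter, in SW620, and edgeR called neither with NIF. At these counts a change could not have been detected in most ligands.

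The receptor and the ISGF3 parts STAT2 and IRF9 did not move as a block in SW620. IFNAR1 and IFNAR2 were not called, with log2 fold changes of 0.03 ± 0.06 and -0.07 ± 0.07 in ALDHbr and -0.04 ± 0.06 and -0.12 ± 0.07 in ALDHneg cells, at about 36 to 40 and 11 to 13 CPM. STAT2 rose from 14.2 to 18.6 CPM on average in ALDHbr (log2 0.39 ± 0.08, edgeR adjusted p = 0.00118) and from 15.4 to 21.6 in ALDHneg cells (log2 0.48 ± 0.08, edgeR adjusted p = 1.58e-04). IRF9, the DNA-binding partner, rose by 0.34 ± 0.09 and 0.50 ± 0.08. IRF1, which interferon gamma induces strongly, fell from 36.7 to 27.1 CPM in ALDHbr (log2 -0.44 ± 0.06, edgeR adjusted p = 6.23e-05) and from 37.2 to 25.7 in ALDHneg cells (log2 -0.55 ± 0.06, edgeR adjusted p = 6.9e-06). USP18, which removes ISG15 from proteins and blocks the receptor, rose by 0.39 ± 0.10 and 0.53 ± 0.09. In SUM159 none of these 6 genes was called with NIF. With the block, IRF1 was lower in ALDHbr (log2 -0.35 ± 0.09) and ALDHneg cells (log2 -0.45 ± 0.08), and IFNAR2 lower in ALDHneg cells (log2 -0.24 ± 0.07).

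Of the 85 genes, 77 passed the filter in SW620. With NIF 18 were higher and 15 lower in ALDHbr cells, and 21 higher and 13 lower in ALDHneg cells, with medians of 0.03 and 0.02. The shares called, 42.9% and 44.2%, were close to the 43.3% and 45.1% of all genes, which were also split about evenly, so these counts are no result about the list. Without SW620 ALDHbr DMSO replicate 2 the ALDHbr counts were 22 higher and 15 lower. The 3 highest in ALDHbr cells were SOCS3, a brake on cytokine receptors (log2 2.23 ± 0.16), SAMD9L (1.87 ± 0.47) and the DNA sensor IFI16 (1.77 ± 0.43), and the 3 lowest were the RNA sensor TLR3 (-1.31 ± 0.28), SP110 (-0.54 ± 0.10) and IRF1. In ALDHneg cells the 3 highest were SOCS3 (2.32 ± 0.13), SOCS1 (1.98 ± 0.59) and the exonuclease ISG20 (1.75 ± 0.09), and the 3 lowest TLR3 (-1.38 ± 0.26), IRF1 and SP110 (-0.51 ± 0.10). SOCS3 is the clearest of these by library, with 0.894, 0.816 and 0.521 CPM under DMSO and 3.48, 3.77 and 3.29 under NIF in ALDHbr cells. SAMD9L, IFI16, SOCS1 and TLR3 had means under 2.5 CPM in all 4 SW620 groups. Among 43 effector genes outside the 10, all tested, 7 rose and 7 fell in ALDHbr cells and 9 rose and 6 fell in ALDHneg cells.

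In SUM159, 69 of the 85 were tested. With NIF 0 were higher and 1 lower in ALDHbr cells, IFNGR1 of the interferon gamma receptor (log2 -0.33 ± 0.08), and 0 higher and 4 lower in ALDHneg cells, IKBKE (-0.41 ± 0.09), IRF2 (-0.38 ± 0.07), IFNGR1 (-0.34 ± 0.08) and BST2 (-0.25 ± 0.06), where 3.16% and 3.30% of all genes were called. Without SUM159 ALDHbr DMSO replicate 3 the ALDHbr count was 0. With the block the counts were 3 higher and 7 lower in ALDHbr and 2 higher and 11 lower in ALDHneg cells, where 13.3% and 13.2% of all genes were called. IFNGR1 fell in both populations of SW620 as well, by 0.39 ± 0.05 and 0.47 ± 0.05 on the log2 scale.

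Between the populations the list followed the 10 members in SW620, with 2 genes higher and 35 lower in ALDHbr cells under DMSO and 1 higher and 33 lower under NIF, of 77, where 11.3% and 6.67% of all genes were called. Without SW620 ALDHbr DMSO replicate 2 the DMSO counts were 4 higher and 39 lower, where 38.8% of all genes were called. Of the effectors 26 of 43 were lower and 0 higher under each treatment. IRF9 was lower in ALDHbr cells (log2 -0.70 ± 0.09 under DMSO), whereas IFNAR1, IFNAR2, STAT2 and IRF1 were not called. In SUM159 the split ran 10 higher and 4 lower under DMSO, of 69 (20.3%, where 23.0% of all genes were called), and 6 higher and 4 lower without SUM159 ALDHbr DMSO replicate 3, where 16.8% were. TRIM22, an antiviral ubiquitin ligase named after its values were seen, was higher in SUM159 ALDHbr cells (log2 1.19 ± 0.18). In SW620 under DMSO its means were 0.0267 CPM in ALDHbr and 0.324 CPM in ALDHneg cells, too low for a comparison. USP18 was lower in ALDHbr cells of SUM159 (log2 -0.71 ± 0.12, edgeR adjusted p = 4.72e-04).

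**Figure D4:**
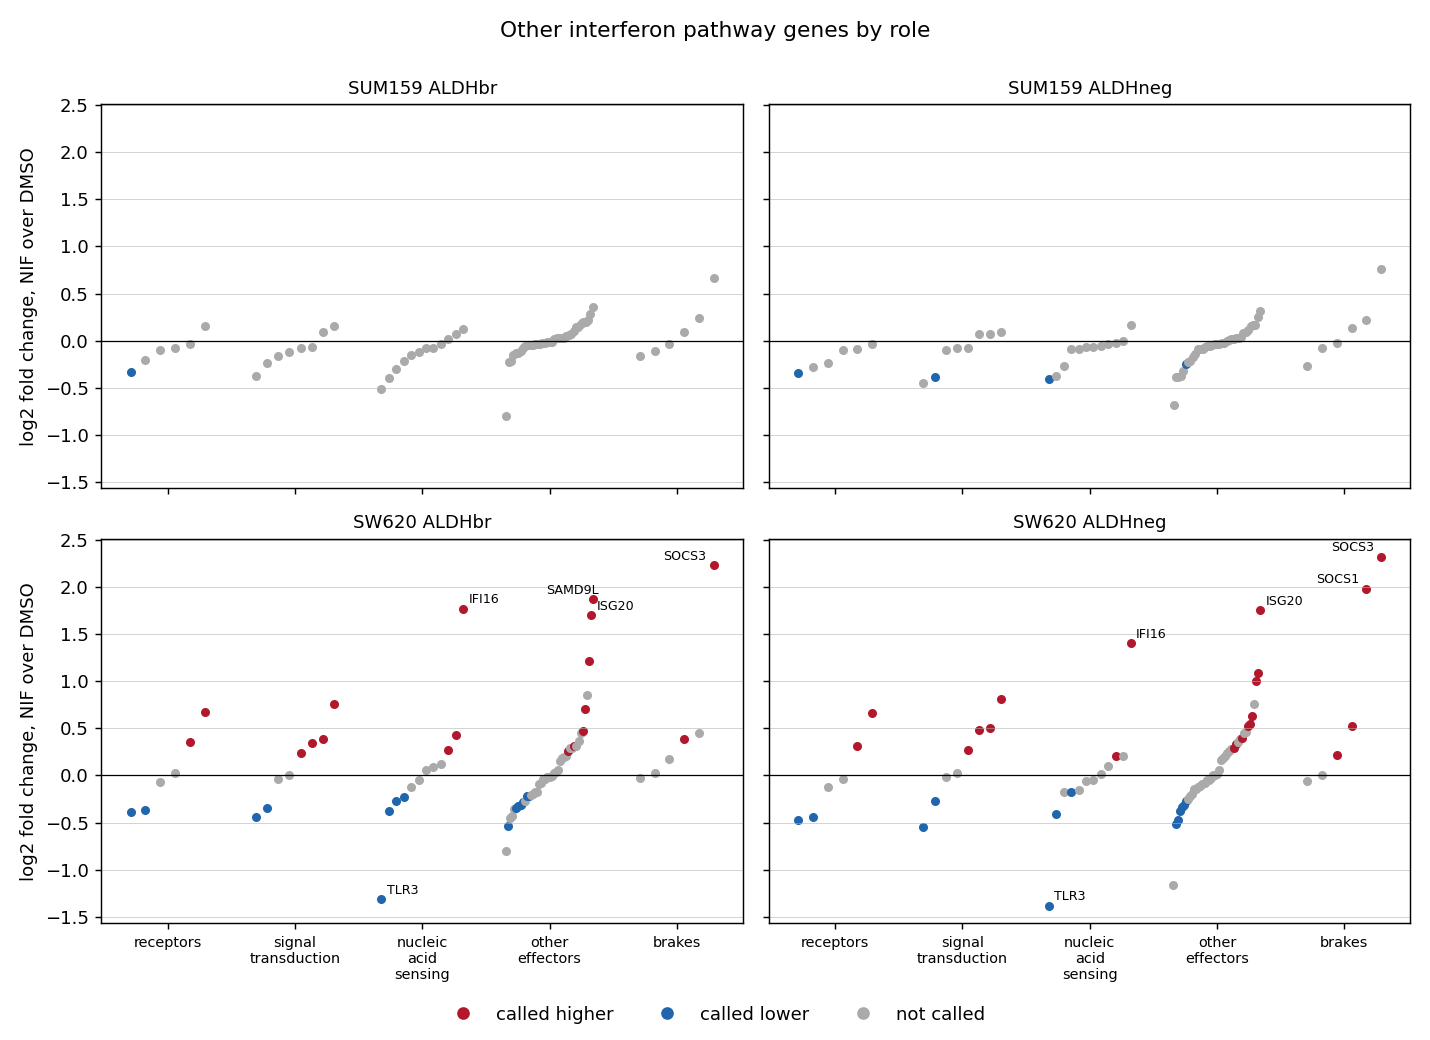
Log2 fold change of NIF over DMSO for the other interferon pathway genes, 1 point per tested gene, grouped by role on the x axis, in the 4 populations; red points were called higher, blue lower and grey not called, and the genes farthest from 0 are named. Ligands are not drawn. The SW620 panels hold red and blue points in every role drawn except the brakes, where called genes were all higher, and the SUM159 panels hold 1 and 4 blue points.

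Within a line the 10 genes varied together to different degrees. Over the 12 SW620 libraries the correlation of log2 CPM between members ran from 0.09 to 0.95, with a median of 0.780, and was positive in 45 of 45 pairs. Over the 12 SUM159 libraries it ran from -0.59 to 0.86, with a median of 0.170 and 29 of 45 positive. These values describe libraries that share 4 groups, so that in SW620 the treatment and the sort both enter them, and in SUM159 the low counts of several members do. The mean log2 CPM of the 10 in SW620 was 4.08 ± 0.02 (SD, n = 3) in ALDHbr DMSO, 4.63 ± 0.04 in ALDHbr NIF, 4.88 ± 0.02 in ALDHneg DMSO and 5.28 ± 0.04 in ALDHneg NIF, which places ALDHbr cells under NIF between untreated ALDHbr and untreated ALDHneg cells. In SUM159 the mean of the 9 tested members lay between 1.47 ± 0.15 and 1.73 ± 0.10 in the 4 groups. The genes whose pattern over 12 libraries was most like that mean were SLC4A11, UCA1 and SLC37A2 in SW620 (Pearson r = 0.987, 0.983 and 0.981 among 11231 genes) and C5orf34, C4orf33 and SEPTIN7P2 in SUM159 (r = 0.933, 0.905 and 0.884 among 11528 genes). None of the 6 was on the interferon lists.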

How the data were processed

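The values deposited by the authors are unnormalized counts of reads per gene in 24 libraries. The submitters' processing notes name FastQC, STAR and GRCh38, without versions, and the counting tool and its strand setting are not given in the sources used here. Testing used edgeR 4.0.16 under R 4.3.3: filterByExpr by group, TMM, quasi-likelihood F tests and Benjamini-Hochberg adjustment over all genes tested, with a call at an adjusted p under 0.05 and no minimum fold. Each line was fitted on its 12 libraries, and the lines were compared in 1 fit of 24. SE is the log2 fold change divided by the square root of F. CPM used effective library sizes of the 24-library fit, and log2 CPM a prior count of 2. Total counts of 30253187 to 43127948 set the precision, and counting error dominates genes with few counts. CPM per kb used the exonic length of the Ensembl canonical transcript.

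Replicate numbers came with 3 independent experiments. Same-numbered SUM159 libraries deviated together (r = 0.126 to 0.452, over 0.1 in 18 of 18 pairs) and SW620 libraries did not (1 of 18), so the numbers were taken to pair SUM159. The 10 genes, the 85 pathway genes and the lists were chosen with earlier results of these data known. Named were all 10 members, core genes (STAT2, IRF9, IRF1, IFNAR1, IFNAR2, IFNB1 and USP18, with 1 more not reported here), the 3 highest and 3 lowest called pathway genes per NIF comparison and the 3 genes most like the member mean in each line; other names were added after their values were seen. The alternatives left out 1 library each, kept only the groups compared, used the replicate block or no filter, scaled by library size alone or by RLE factors, or used DESeq2 1.42.0. Fits were tested on simulated data. Promoters are from RefSeq.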

Additional observations from a re-analysis of the deposited data

Results flagged for a closer look

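The test of the difference between the lines' NIF effects, in the 24-library edgeR quasi-likelihood fit with Benjamini-Hochberg adjustment, singled out 7 values, all larger in SW620. In ALDHbr cells these were the log2 differences of IFIT1 (1.04, adjusted p = 0.0173), IRF7 (0.63, adjusted p = 0.00992) and OAS2 (0.98, adjusted p = 0.0261), with OAS1 (1.45) listed without its p. In ALDHneg cells they were those of ISG15 (0.49, adjusted p = 0.0488), IRF7 (0.71, adjusted p = 0.00309) and MX1 (1.06, adjusted p = 0.0113). IRF7 appeared in both populations. OAS1 passed the filter only through its SW620 counts, and its SUM159 libraries held 1 to 16 counts. Its value is therefore not read as a test result. Groups of 3 libraries are too small for a test of single outlying libraries.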

How the results depend on the processing

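Counts of members called with NIF in SW620 ALDHbr cells (9) and between the lines (9 and 9, OAS1 left out) did not change under any alternative run. The count of 7 in SW620 ALDHneg cells became 8, with OAS2, in the fit of only the groups compared. IFIT1 between SW620 populations under NIF was lost with the replicate block. With the replicate block the pathway list gave 10 calls in SUM159 ALDHbr and 13 in ALDHneg cells, and 2 members between SUM159 populations under DMSO; the block turned the SUM159 ALDHbr NIF value of IFIT1 to -0.01. SW620 numbers did not pair the libraries. Library size scaling gave 0 pathway calls in SUM159 ALDHbr cells and -0.02 for OAS2 between SUM159 populations under DMSO. DESeq2 gave -0.01 for IFIT2 in SUM159 ALDHbr cells and 5 members, OAS1 included, for the line difference in ALDHneg cells. Only the groups compared gave 1 pathway call in SUM159 ALDHneg and 21 in SW620 ALDHbr cells. Library size scaling, no filter and DESeq2 each gave 1 member for the difference of the NIF effects between SW620 populations. The causes were not tested.

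Leaving out 1 library at a time, counts of members ran from 0 to 1 for NIF in SUM159 ALDHneg cells, 0 to 1 for the difference between SW620 populations, and 2 to 4 and 2 to 5 for the line differences in ALDHbr and ALDHneg cells, OAS1 included. Between SW620 populations under NIF it ran from 6 to 8. Pathway calls ran from 0 to 1 in SUM159 ALDHbr and 1 to 3 in ALDHneg cells. The ranges that follow are over all alternatives, not only the fits that left out 1 library. Values that crossed 0 were never called on either side. For NIF in SUM159 ALDHbr cells they ran from -0.04 to 0.18 (ISG15), -0.14 to 0.09 (IFIT1), -0.33 to 0.40 (IFIT2) and -0.05 to 0.09 (IFIT3), and in ALDHneg cells from -0.10 to 0.13 (ISG15), -0.51 to 0.26 (IFIT1), -0.41 to 0.05 (IFIT2) and -0.24 to 0.18 (OAS2). OAS3 ran from -0.12 to 0.13 in SW620 ALDHbr cells. Between SUM159 populations OAS2 ran from -0.16 to 0.20 and IRF7 from -0.28 to 0.03 under DMSO, and MX1 from -0.37 to 0.05 under NIF. For the difference of NIF effects between SUM159 populations the ranges were -0.07 to 0.19 (ISG15), -0.26 to 0.52 (IFIT1), -0.22 to 0.50 (IFIT2), -0.08 to 0.17 (IFI6), -0.08 to 0.45 (MX1) and -0.21 to 0.10 (IRF7), and between SW620 populations -0.17 to 0.05 (ISG15), -0.13 to 0.02 (IFI6), -0.20 to 0.01 (MX1) and -0.07 to 0.18 (OAS3). Between lines OAS3 ran from -0.05 to 0.19 in ALDHbr and IFIT3 from -0.04 to 0.15 in ALDHneg cells. Low counts limit IFIT1, IFIT2, MX1, OAS1 and OAS2 in SUM159.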
